A study of Mus musculus with 15 samples.

Results

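The genes described here serve major histocompatibility complex (MHC) class I antigen presentation and the interferon response. They were taken as a list of 31 named autosomal genes, of which 29 had a row among the 44260 genes of the table. No values were analysed here for the other two, H2-K1 and H2-D1, which encode the classical class I heavy chains and are among the most polymorphic genes of the mouse. RNA came from cerebral cortex organoids at day 12, grown from SpretB6 lines of epiblast stem cells, per the growth protocol and the name of the table, although the label for tissue gives only epiblast stem cells. These hybrid cells carry an autosomal copy from Spret (Mus spretus, a wild-derived inbred strain) and a copy from B6 (C57BL/6J, a standard laboratory strain). Per its title and design, the study addresses the evolution of cis-regulation between mouse strains. There were 3 libraries, titled C1 to C3, each with a Spret value and a B6 value per gene, and the labels give no treatment. Whether they are separate cultures is not said, so the spread of these 3 libraries may be technical only. The error behind each p-value joins a gene's own spread over the libraries with that of genes of similar level. The latter weighs more, at 12.3 prior against 2 residual degrees of freedom. The other 12 samples of the series, stem cells of 4 crosses, were not analysed here.

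Class I molecules show peptides from inside the cell to T cells. Proteasomes cut the peptides, the TAP transporter carries them into the endoplasmic reticulum, and chaperones load them onto a heavy chain paired with beta-2 microglobulin. Interferons bind paired receptor chains, which activate JAK kinases and STAT and IRF transcription factors, and these switch on antiviral genes and class I genes alike. In the developing brain, class I genes are kept low in most cells and have been linked to synapse refinement.

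Values are normalised allele-specific read numbers as deposited. They summed to 2337998, 2088788 and 2639912 for Spret and 2701847, 2413876 and 3027078 for B6 in libraries 1, 2 and 3. Library 2 stood apart at low values, with a median of 10.5 per gene over both alleles, against 7.0 and 5.0 in libraries 1 and 3. The organoids expressed all 10 markers of the dorsal forebrain list, with sums between 20743 and 21909 per library. Of 13 microglia and blood markers 4 had a mean of at least 10 per allele column. Sums of that list were 169, 310 and 176 in libraries 1, 2 and 3, those of 8 endothelial markers were 173, 239 and 84, and those of 5 choroid plexus and hem markers were 3261, 862 and 545. Of 8 fibroblast and mesenchyme markers 7 had a mean of at least 10, and the sums of that list were 450, 467 and 431. Of 5 pluripotent markers 1 did, with list sums of 71, 80 and 22. This was Pou5f1, which read 0, 4 and 0 from Spret and 57, 59 and 13 from B6. No gene of these lists was at 0 throughout, and their part in the results below was not tested. In bulk RNA, fewer cells of a type and less RNA per cell cannot be told apart.

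A gene was tested when its mean over the 6 allele columns reached 10, which 23 of the 29 members did. The ratio is log2(Spret value + 1) minus log2(B6 value + 1), and a gene is called when its limma p, adjusted by Benjamini-Hochberg over 15985 tested genes, is below 0.05. Of the 23 tested members 12 were called, 7 higher from Spret and 5 higher from B6. The share called over 15456 tested autosomal genes was 28.4%, made up of 7.78% toward Spret and 20.7% toward B6. The median ratio was 0.30 for the tested members and -0.13 for all tested autosomal genes. Since that shift toward B6 runs through the table, ratios were also centred on it. The median absolute ratio was 0.48 for the tested members and 0.29 for autosomal genes. The centred calls were 9 toward Spret and 4 toward B6, where 26.8% of autosomal genes were called, 13.3% toward Spret and 13.5% toward B6. Tapbp and Irf3 gained a call and Eif2ak2 lost one. In 10 tested members the alleles did not overlap over the 3 libraries, 6 with Spret above and 4 with B6 above, where 23.8% of tested autosomal genes did so, 6.96% with Spret above and 16.8% with B6 above. Without the pairing of alleles within a library 4 members were called (Ifnar1, Ifngr2, Stat2 and Ifitm2), and with no filter on low values 3 (Ifnar1, Ifngr2 and Stat2), all higher from B6. The share of autosomal genes called in these alternatives is not reported here, so the counts are not read as a trait of the members. With no reverse cross among these libraries, a strain's effect and an effect of the parent it came through cannot be told apart. How reads were assigned to alleles is not stated, and the part of allele assignment in the ratios was not tested.

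**Figure D1:**
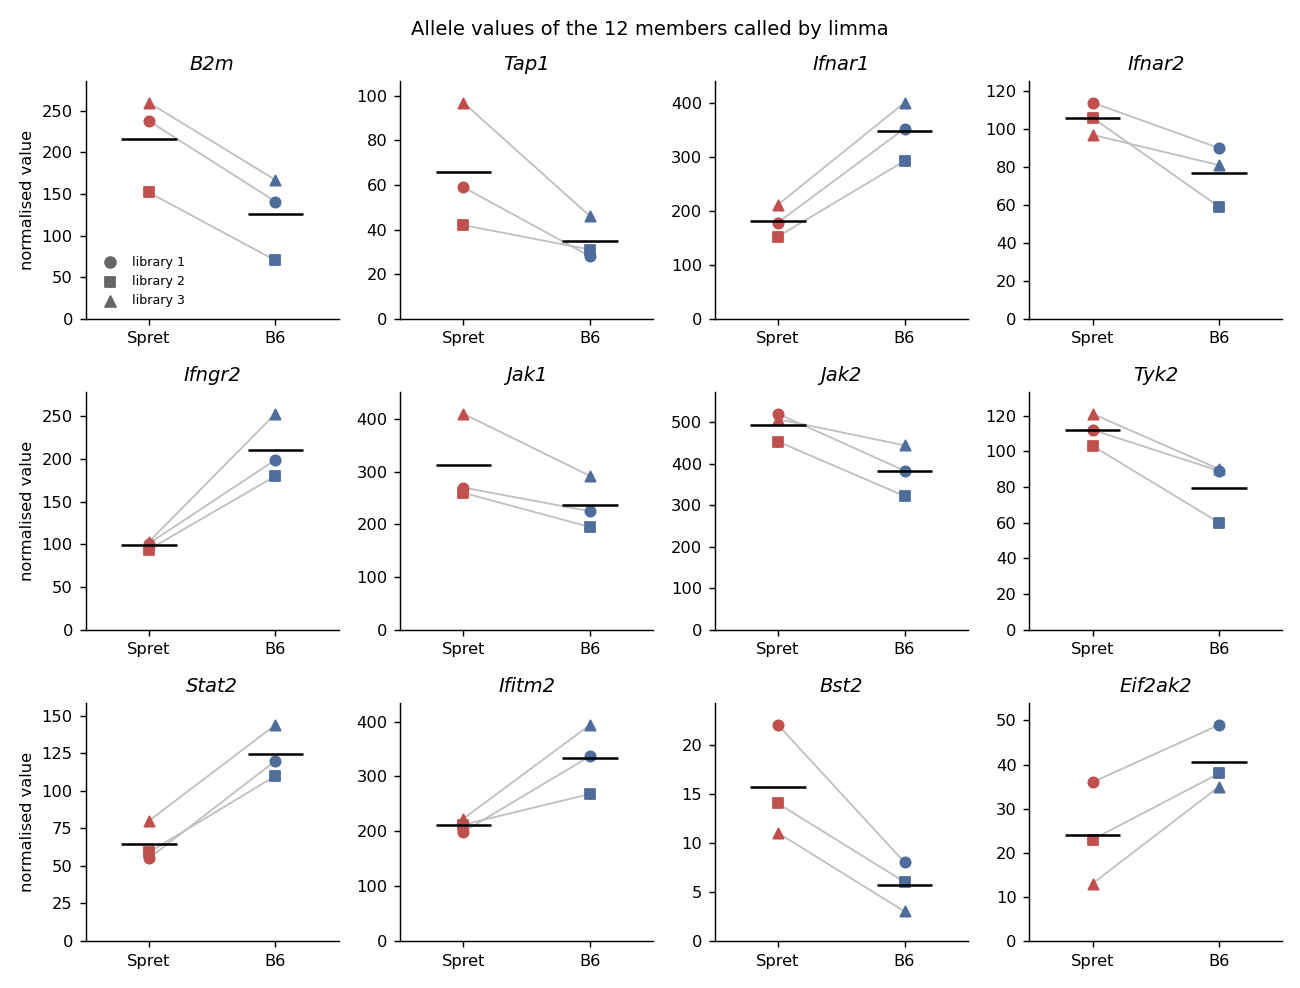
Normalised values (y axis, linear from 0) of the 12 called members from the Spret allele and the B6 allele (x axis) in 3 libraries. Symbols mark libraries, grey lines join the alleles of a library and black bars are means. In Ifnar1, Ifngr2, Stat2 and Ifitm2 every B6 value stands above every Spret value.

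Among the presentation genes, B2m and Tap1 were higher from Spret, and the chaperone gene Tapbp pointed the same way without a call. B2m, the light chain that every class I molecule needs, lies on chromosome 2 (122147686 to 122153083, GRCm38). It read 238, 152 and 260 from Spret and 141, 70 and 167 from B6 in libraries 1, 2 and 3. Spret was higher within each library, but library 2 was low for both alleles, so the groups overlap. B2m averaged 217 ± 57.1 from Spret and 126 ± 50.2 from B6 (SD, n = 3). The log2 ratio was 0.83 ± 0.12 (SE, limma adjusted p = 8.1e-05), or 1.78-fold. The call of B2m ended with no filter and without the pairing (adjusted p = 0.0739 and 0.138). The Spret share of B2m was 64.1% ± 3.94 (SD, n = 3).

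The B6 reference promoter of B2m is shown because it carries a match to the interferon-stimulated response element (ISRE), the site of the STAT and IRF complex. The pattern searched on both strands was a pair of GAAA blocks with any 2 bases between them, and capitals mark the match, which starts 139 bases before the RefSeq start site (GRCm38.p6, chr2:122147437-122147736, plus strand).
B2m: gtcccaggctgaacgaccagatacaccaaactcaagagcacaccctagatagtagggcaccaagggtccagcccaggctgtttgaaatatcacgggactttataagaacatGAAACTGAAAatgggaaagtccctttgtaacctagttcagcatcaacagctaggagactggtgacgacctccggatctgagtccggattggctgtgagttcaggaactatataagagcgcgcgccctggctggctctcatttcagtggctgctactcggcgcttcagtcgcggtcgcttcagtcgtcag
Such a match was found in 3.44% of 32851 RefSeq promoter windows of 300 bases, and in 8 of the 27 members that had a window: B2m, Stat2, Irf2, Ifitm2, Ifitm3, Isg15, Bst2 and Eif2ak2. The units differ, since the share is per window and a member counted if any of its windows matched. The match describes the B6 sequence, and the Spret sequence was not used here.

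Tap1, a subunit of the peptide transporter, lies on chromosome 17 (34187553 to 34197225) and read 59, 42 and 97 from Spret and 28, 31 and 46 from B6. Spret was higher in 3 of 3 libraries, though the Spret value of library 2 lay below the B6 value of library 3. Its ratio was 0.85 ± 0.21 (SE, limma adjusted p = 0.0075), or 1.80-fold. The call of Tap1 ended without library 1 and without library 3 (adjusted p = 0.088 and 0.107, over a range from 0.00294 to 0.147 in 12 alternatives). Tap2, its partner subunit, read 24, 17 and 18 from Spret and 12, 32 and 14 from B6. The alleles changed order between libraries, with ratios of 0.94, -0.87 and 0.34, and the 95% interval of the mean ratio of 0.14 ran from -0.62 to 0.90. Tapbp encodes tapasin, which bridges transporter and heavy chain, and read 92, 66 and 67 from Spret and 51, 54 and 58 from B6. Its groups did not overlap, and its ratio of 0.44 was called after centring but not before (limma adjusted p = 0.083, and 0.0313 centred). Of Tapbp transcripts, 23.2% of 50-base stretches also occur in other genes, mostly in the antisense gene Gm19412. Zbtb22, annotated on the same strand, overlaps Tapbp by 3422 bases. It averaged 62.7 per allele column, against 64.7 for Tapbp, and had a ratio of 0.07.

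The immunoproteasome subunits replace standard proteasome subunits under interferon and favour peptides that fit class I. None was called. Psmb9 read 9, 11 and 27 from Spret and 8, 13 and 10 from B6, with a ratio of 0.43 and an interval from -0.40 to 1.25. Without library 3 that ratio was -0.04. Psmb10 read 20, 24 and 17 from Spret and 8, 18 and 16 from B6, a ratio of 0.57 with an interval from -0.15 to 1.28. Spret was higher in each library, by little in library 3. Psmb8 was not tested, at 6, 13 and 4 from Spret and 5, 15 and 11 from B6. The intervals of Psmb9 and Psmb10 both include a 2-fold higher value from Spret.

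Tap1 and Psmb9 start next to each other on opposite strands, and their RefSeq promoter windows share 275 bases. The annotated genes overlap by 212 bases, and 163 of the 50-base stretches of Psmb9 transcripts also occur in Tap1 transcripts. Counting by strand is not given for these libraries, so reads from the overlap cannot be told apart. Their ratios from library 1 to 3 were 1.05, 0.43 and 1.06 for Tap1 and 0.15, -0.22 and 1.35 for Psmb9.

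The receptor chains split by allele. Ifnar1 and Ifngr2 were higher from B6, Ifnar2 was higher from Spret, and Ifngr1 was not called. Ifnar1, a chain of the type I interferon receptor, lies on chromosome 16 (91485238 to 91507441). It read 178, 152 and 211 from Spret and 352, 292 and 400 from B6. The B6 values stood apart from the Spret values, and the ratios of -0.98, -0.94 and -0.92 differed little between libraries. The Spret share was 34.1% ± 0.485 (SD, n = 3), and the ratio of -0.95 ± 0.09 (SE) had a limma adjusted p = 6.84e-07, a 1.93-fold difference.

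Ifnar2, the other chain of the same receptor (chromosome 16, 91372783 to 91405589), read 114, 106 and 97 from Spret and 90, 59 and 81 from B6. Every Spret value was above every B6 value. The ratio was 0.48 ± 0.16 (SE, limma adjusted p = 0.0322), and the call ended when any 1 library was left out (adjusted p = 0.111, 0.207 and 0.0524 without library 1, 2 and 3, over a range from 0.0093 to 0.23). The 95% intervals ran from 0.14 to 0.81 for Ifnar2 and from -1.13 to -0.76 for Ifnar1, and the difference between the genes was not tested. Ifnar2 shares 266 of its 3373 transcript stretches of 50 bases with Gm21970, annotated on the same strand across it, which averaged 53.0 ± 15.5 for Spret and 34.3 ± 5.03 for B6 (SD, n = 3).

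Ifngr2, the signalling chain of the interferon gamma receptor (chromosome 16, 91547072 to 91565623), read 101, 94 and 103 from Spret and 199, 180 and 253 from B6. Spret values were close together and all below the B6 values. The ratio was -1.06 ± 0.12 (SE, limma adjusted p = 6.39e-06), or 2.09-fold. Ifngr1, the chain that binds interferon gamma, read 20, 18 and 11 from Spret and 14, 18 and 21 from B6. Its alleles changed order between libraries, and the interval of the ratio of -0.13 ran from -0.86 to 0.60. Levels can be set side by side per kb of exon, over both alleles, although assignable reads also depend on how many differences the alleles hold. On that scale Ifngr2 stood at 82.3 ± 11.1 and Ifngr1 at 11.9 ± 0.703 per kb (SD, n = 3), and Ifnar1 at 88.9 ± 14.1 and Ifnar2 at 54.8 ± 5.97.

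All 3 kinases that the receptors use were higher from Spret, each by less than 1.5-fold. Jak2, which works with the interferon gamma receptor, lies on chromosome 19 (29251828 to 29313080) and read 520, 453 and 507 from Spret and 383, 322 and 444 from B6. The groups did not overlap, and the ratio was 0.37 ± 0.08 (SE, limma adjusted p = 0.00187), or 1.30-fold. Jak1, which serves both interferon types (chromosome 4, 101152367 to 101265282), read 270, 260 and 410 from Spret and 225, 195 and 292 from B6. Library 3 was highest for both alleles, so the groups overlap, and the ratio was 0.39 ± 0.09 (SE, limma adjusted p = 0.00356). Tyk2, a kinase of the type I receptor (chromosome 9, 21104068 to 21131243), read 112, 103 and 121 from Spret and 89, 60 and 90 from B6, without overlap. Its ratio was 0.51 ± 0.15 (SE, limma adjusted p = 0.0169).

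The call of Jak2 ended without library 1 (adjusted p = 0.0541, over a range from 0.000153 to 0.218) and that of Jak1 ended without library 3 (0.0574, range 0.000375 to 0.339). The call of Tyk2 ended when any 1 library was left out (0.0599, 0.0999 and 0.0659 without library 1, 2 and 3, range 0.00444 to 0.19). The direction stayed toward Spret in all 12 alternatives for each kinase. Of Tyk2 transcripts, 7.52% of 50-base stretches also occur in other genes, mostly in the antisense gene 1700084C06Rik.

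**Figure D2:**
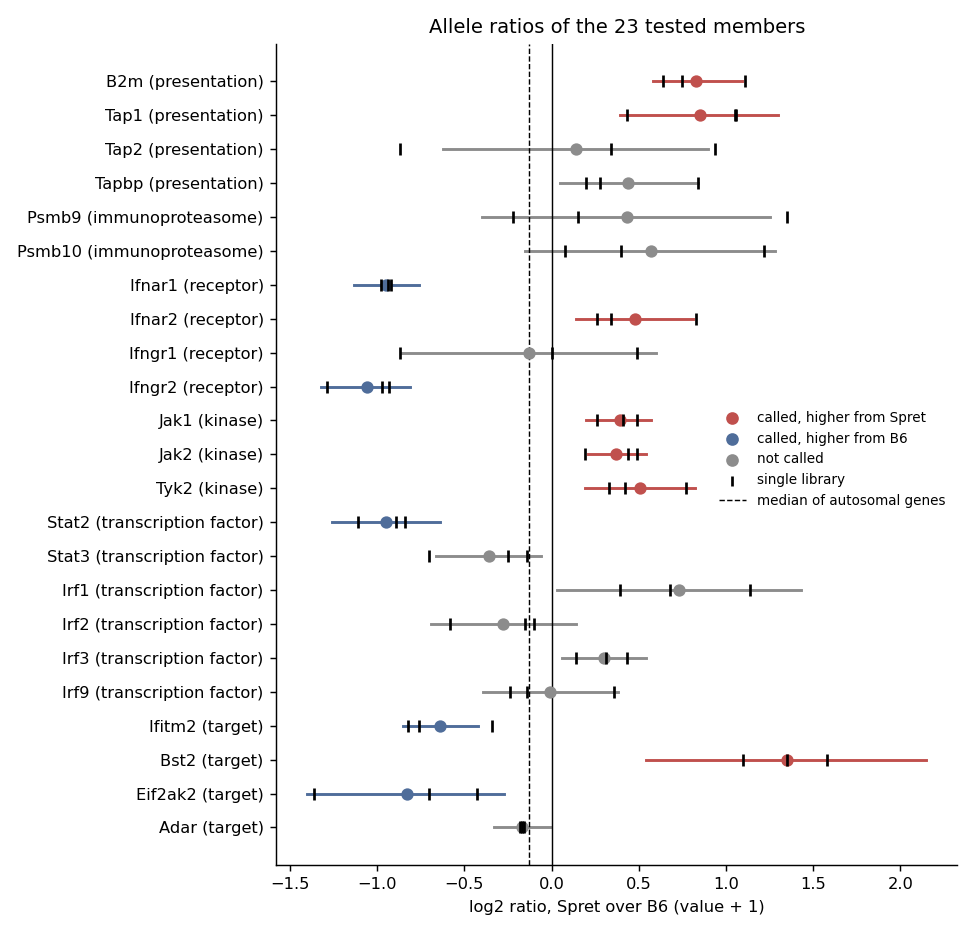
Log2 ratio of Spret over B6 (x axis) for the 23 tested members, grouped by role (y axis). Dots are limma estimates, bars their 95% intervals, ticks single libraries, and the dashed line is the autosomal median of -0.13. The 3 kinases lie to the right of 0, and Ifnar1, Ifngr2 and Stat2 near -1 to the left.

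Among the transcription factors, Stat2 was the one called without centring. Stat2 joins IRF9 in the complex that carries type I interferon signals, and lies on chromosome 10 (128270559 to 128292849). It read 55, 59 and 80 from Spret and 120, 110 and 144 from B6. All B6 values were above all Spret values, and library 3 was highest for both alleles. The ratio was -0.95 ± 0.14 (SE, limma adjusted p = 0.000156), or 1.93-fold, with a Spret share of 34% ± 2.28 (SD, n = 3). Its promoter is shown because it also holds an ISRE match, here on the opposite strand, so the capitals spell the reverse complement (GRCm38.p6, chr10:128270248-128270547, plus strand). The match starts 222 bases before the start site.
Stat2: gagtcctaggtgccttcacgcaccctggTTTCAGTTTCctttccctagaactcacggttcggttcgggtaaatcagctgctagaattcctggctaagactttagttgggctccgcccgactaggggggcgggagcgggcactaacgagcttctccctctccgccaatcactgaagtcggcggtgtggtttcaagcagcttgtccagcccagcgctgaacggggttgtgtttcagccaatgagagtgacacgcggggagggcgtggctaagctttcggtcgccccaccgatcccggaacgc

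Irf9, the DNA-binding partner of Stat2, read 60, 71 and 64 from Spret and 66, 55 and 76 from B6. The alleles were close, with a ratio of -0.01, which was 0.12 with centred ratios, and an interval from -0.39 to 0.38. A difference of the size seen in Stat2 lies outside this interval. Irf3, which responds to viral RNA and DNA sensing, read 203, 143 and 169 from Spret and 150, 115 and 153 from B6, higher from Spret within each library. Its ratio of 0.30 ± 0.11 (SE) was called after centring (limma adjusted p = 0.059, and 0.0111 centred). Irf1, an early target of interferon gamma, read 16, 23 and 21 from Spret and 12, 14 and 9 from B6, without overlap. At this level its ratio of 0.73 had an interval from 0.03 to 1.43 and was not called (adjusted p = 0.104). Irf2, a repressor of interferon genes, had a ratio of -0.28 (-0.69 to 0.14) and Stat3, the main carrier of interleukin 6 family signals, -0.36 (-0.66 to -0.06), both below 0 in 3 of 3 libraries. The adjusted p-values from limma were 0.305 and 0.0623.

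Among the target genes, Ifitm2 and Eif2ak2 were higher from B6, Bst2 was higher from Spret, and Adar was not called. The other 5 targets stayed under the filter. Ifitm2 belongs to a family of membrane proteins that block virus entry, and lies on chromosome 7 (140954837 to 140955987). It read 199, 212 and 223 from Spret and 337, 268 and 394 from B6. Spret values were close together and all below the B6 values. The ratio was -0.64 ± 0.10 (SE, limma adjusted p = 0.000226), or 1.56-fold. The call of Ifitm2 ended with no filter and without the intensity trend of limma (adjusted p = 0.114 and 0.0642). Per kb of exon it was the most abundant member, at 831 ± 105 over both alleles (SD, n = 3), with B2m next at 398 ± 125 and Jak2 at 174 ± 18.1.

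The value of Ifitm2 is uncertain, since 48.5% of its 50-base transcript stretches also occur in other genes. Among them are Gm45717, which overlaps it by 1101 bases on the same strand, Gm11951 and Gm8865. Gm45717 had nearly the same ratio, -0.67 ± 0.13 (SE, limma adjusted p = 0.00154). In contrast to Ifitm2, its relatives were near 0. Ifitm1 read 1, 0 and 1 from Spret and 3, 3 and 3 from B6, and Ifitm3 read 2, 1 and 2 from Spret and 1, 0 and 3 from B6.

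Bst2, or tetherin, holds budding viruses at the cell surface and lies on chromosome 8 (71534255 to 71537456). It read 22, 14 and 11 from Spret and 8, 6 and 3 from B6. Both alleles were highest in library 1 and lowest in library 3, and the groups did not overlap. With a ratio of 1.35 ± 0.38 (SE, limma adjusted p = 0.014), or 2.54-fold, it was the tested member farthest from equal shares, with 74.0% ± 4.32 from Spret (SD, n = 3). It passed the filter narrowly, at a mean of 10.7, and only through its Spret values, with means of 15.7 from Spret and 5.67 from B6. Its place as the tested member farthest from equal shares is therefore tied to the filter. Without library 3 the call of Bst2 ended (adjusted p = 0.0801, over a range from 0.0086 to 0.102), while without library 1 it was below the filter. Its level was highest in library 1, as was that of the choroid plexus and hem markers, whose part in it was not tested. The promoters of Bst2 and Ifitm2 are shown because both hold ISRE matches while their alleles lean in opposite directions. Capitals mark them, and in Bst2 also a TTCNNNGAA match, the gamma-activated site (GAS), that overlaps the first of 2 overlapping ISRE matches (GRCm38.p6, chr8:71537423-71537722 for Bst2 and chr7:140955912-140956211 for Ifitm2, both minus strand).
Bst2: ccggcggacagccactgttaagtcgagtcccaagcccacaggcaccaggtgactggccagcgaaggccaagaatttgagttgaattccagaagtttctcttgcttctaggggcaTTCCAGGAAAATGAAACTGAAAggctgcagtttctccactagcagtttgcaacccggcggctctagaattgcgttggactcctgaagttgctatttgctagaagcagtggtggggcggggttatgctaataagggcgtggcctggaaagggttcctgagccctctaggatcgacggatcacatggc
Ifitm2: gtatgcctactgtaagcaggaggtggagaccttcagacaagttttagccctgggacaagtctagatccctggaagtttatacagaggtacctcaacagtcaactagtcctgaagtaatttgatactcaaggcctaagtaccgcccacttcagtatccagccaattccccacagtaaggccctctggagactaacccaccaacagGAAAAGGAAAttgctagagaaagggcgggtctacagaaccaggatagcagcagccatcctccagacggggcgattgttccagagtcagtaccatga
The first match starts 130 bases before the start site in Bst2 and 46 bases before it in Ifitm2. A GAS match was found in 8.30% of all promoter windows and in 9 of the 27 members, among them Ifnar1, Ifnar2, Irf1 and Eif2ak2. Members again counted if any window matched, and Adar did so only through its window 3.

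Eif2ak2 encodes PKR, a kinase that stops translation when it binds double-stranded RNA (chromosome 17, 78852564 to 78882573). It read 36, 23 and 13 from Spret and 49, 38 and 35 from B6, lower from Spret in each library although the groups overlap. The ratio of -0.83 ± 0.26 (SE, limma adjusted p = 0.0273) lost its call with centred ratios (adjusted p = 0.0568) and when any 1 library was left out (0.0727, 0.0522 and 0.218 without library 1, 2 and 3, over a range from 0.0192 to 0.218). Adar, which edits adenosines in double-stranded RNA, read 300, 254 and 450 from Spret and 335, 288 and 506 from B6. Its level differed between libraries while the Spret share varied little, at 47.1% ± 0.191 (SD, n = 3). The ratio of -0.17 lay near the autosomal median, was -0.05 after centring, and was not called (limma adjusted p = 0.104, interval -0.33 to -0.01). Of Adar transcripts, 14.4% of 50-base stretches also occur in Chrnb2 on the opposite strand. Chrnb2 averaged 354 per allele column, against 355.5 for Adar, and its part in the Adar values was not tested.

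The remaining targets were scarce. Isg15, a ubiquitin-like protein that is among the most inducible interferon targets, read 0, 0 and 1 from Spret and 5, 3 and 5 from B6. Ifi27 read 5, 4 and 8 from Spret and 8, 4 and 3 from B6, and Trim25, a ubiquitin ligase of RNA sensing, read 1, 9 and 2 from Spret and 6, 18 and 5 from B6. Over both alleles the 6 members under the filter had sums of 43, 70 and 48 from library 1 to 3, highest in library 2, whereas the 23 tested members had sums of 5658, 4819 and 6605, lowest there. Sums over all genes of the table were also lowest in library 2, at 4502664, against 5039845 in library 1 and 5666990 in library 3. Values as low as those of the 6 members under the filter do not allow a statement on their alleles.

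Several members lie together on a chromosome, and their neighbours were looked at for the same allelic direction. On chromosome 16, Ifnar2, Ifnar1 and Ifngr2 span 192.8 kb, and 12 other genes within 250 kb were tested. Of these 4 were called, all higher from B6, where 28.4% of autosomal genes were called and 20.7% toward B6, so with 12 genes the count is near that background. After centring 4 were called toward B6 and 1 (Gm21970) toward Spret. Il10rb, a chain of the interleukin 10 and lambda interferon receptors between Ifnar2 and Ifnar1, read 8, 6 and 3 from Spret and 18, 18 and 8 from B6, a ratio of -1.23 ± 0.38 (SE, limma adjusted p = 0.0238). Il10rb passed the filter narrowly, at a mean of 10.2, and only through its B6 values, with means of 5.67 from Spret and 14.7 from B6. It lost its call without library 3, with no filter and without the pairing (adjusted p up to 0.155). Tmem50b, next to Ifngr2, had a ratio of -0.88 ± 0.15 and Son, a splicing factor, -0.29 ± 0.05. Ifnar2 was the one called gene of this stretch that was higher from Spret without centring.

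On chromosome 17, Tapbp, Psmb9, Tap1, Psmb8 and Tap2 span 300.4 kb of the MHC, and 22 other genes nearby were tested. There 5 were called, all toward B6, and 3 toward B6 with 1 toward Spret after centring, near or below the background of 20.7% toward B6 and of 26.8% after centring. The nearest called ones were BC051226 at -1.55 ± 0.30, Pfdn6, a subunit of a chaperone for actin and tubulin, at -0.45 ± 0.13, and Ndufa7, a subunit of respiratory complex I, at -0.86 ± 0.20. Tap1 was the one called gene of the window that was higher from Spret without centring. Around the Ifitm genes on chromosome 7, 16 other genes were tested, 2 of them called toward Spret and 4 toward B6, counts near the background of 7.78% and 20.7%. Besides Gm45717 the nearest were Pgghg, a glucosidase of collagen sugars, at -1.79 ± 0.26, and B4galnt4, a glycosyltransferase, at -0.52 ± 0.07.

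**Figure D3:**
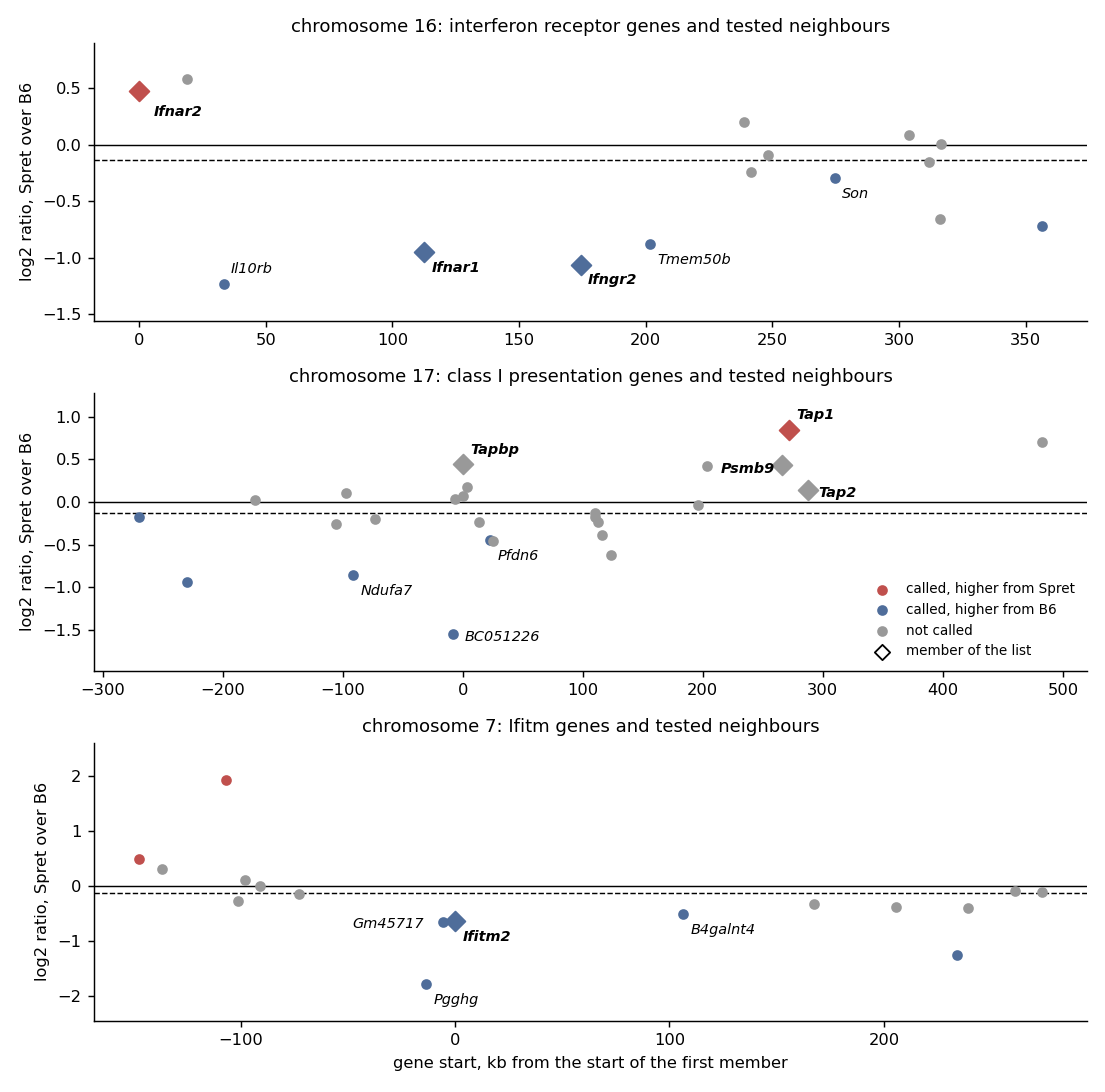
Log2 ratio of Spret over B6 (y axis) of tested genes around 3 clusters of members, against the distance of the gene start from the start of the first member in kb (x axis). Diamonds are members, dots are neighbours, colour marks the call, and the dashed line is the autosomal median of -0.13. Ifnar2 at 0.48 stands above Il10rb at -1.23, Ifnar1 at -0.95 and Ifngr2 at -1.06.

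Other genes of the same pathways came from a wider list of 145 names, of which 133 had a row, 132 of them autosomal, and 69 were tested. Of these 27 were called, 4 higher from Spret and 23 higher from B6. Over autosomal genes 28.4% were called, 7.78% toward Spret and 20.7% toward B6. With centred ratios 5 were called toward Spret and 15 toward B6, where 26.8% of autosomal genes were called, 13.3% toward Spret and 13.5% toward B6. Without library 1 the count of calls was 10. The median ratio was -0.21, against 0.30 for the members and -0.13 for autosomal genes. In the class I and II subset 12 of 20 were called, 1 toward Spret and 11 toward B6, or 2 and 4 after centring. With 20 genes the counts after centring are near those centred shares. Of 17 signalling genes and regulators 1 was called toward Spret and 6 toward B6. Of 9 sensors 1 was called toward Spret and 0 toward B6, and of 23 targets 1 toward Spret and 6 toward B6.

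The most abundant called genes toward B6 were chaperones that fold the class I heavy chain, and a regulator. Calr, a lectin chaperone of the endoplasmic reticulum and of the peptide-loading complex, read 1639, 1313 and 1446 from Spret and 2162, 1886 and 1872 from B6, without overlap. Its ratio was -0.43 ± 0.05 (SE, limma adjusted p = 3.92e-06), and the call ended without the intensity trend and without the pairing (adjusted p up to 0.13). Canx, the membrane-bound lectin chaperone, had a ratio of -0.28 ± 0.06, and Pdia3, the disulphide isomerase of the loading complex, -0.22 ± 0.08. Both were not called once ratios were centred (adjusted p = 0.0519 and 0.368, with ranges from 0.00084 to 0.329 and from 0.0313 to 0.535), and Pdia3 also lost its call when any 1 library was left out. Irf2bp2, a corepressor that binds Irf2, had a ratio of -0.40 ± 0.08. It lost its call without library 1, with no filter, without the intensity trend and without the pairing (adjusted p up to 0.252).

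The 4 genes called toward Spret were Rfx5, Ticam1, Ifnlr1 and Isg20. Rfx5, a subunit of the factor that drives MHC promoters, read 104, 89 and 138 from Spret and 77, 60 and 113 from B6, a ratio of 0.43 ± 0.14. Ticam1, an adaptor of Toll-like receptor 3, read 50, 50 and 58 from Spret and 38, 26 and 39 from B6, a ratio of 0.62 ± 0.21. The calls of Rfx5 and Ticam1 ended when any 1 library was left out. Ifnlr1, the specific chain of the lambda interferon receptor whose partner is Il10rb, read 32, 29 and 56 from Spret and 16, 4 and 26 from B6. Its ratio was 1.54 ± 0.34 (SE, limma adjusted p = 0.00315), and the call ended with no filter, without the intensity trend and without the pairing (adjusted p up to 0.175). Isg20, an antiviral exonuclease, read 18, 18 and 32 from Spret and 9, 14 and 8 from B6, at 1.05 ± 0.36. It was not called without library 1 or library 3, with no filter, without the intensity trend or without the pairing (adjusted p up to 0.346).

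Oas2 and Oas3 encode enzymes that sense double-stranded RNA, and are named after their values were seen. Both were called higher from B6, at ratios of -1.87 ± 0.45 and -1.48 ± 0.41, from means under 20 per allele, with overlapping groups. Passing the filter leaned on their B6 values, so these ratios are tied to the filter. Both lost their calls without library 1, with no filter, without the intensity trend and without the pairing (limma adjusted p up to 0.183 and 0.173).

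**Figure D4:**
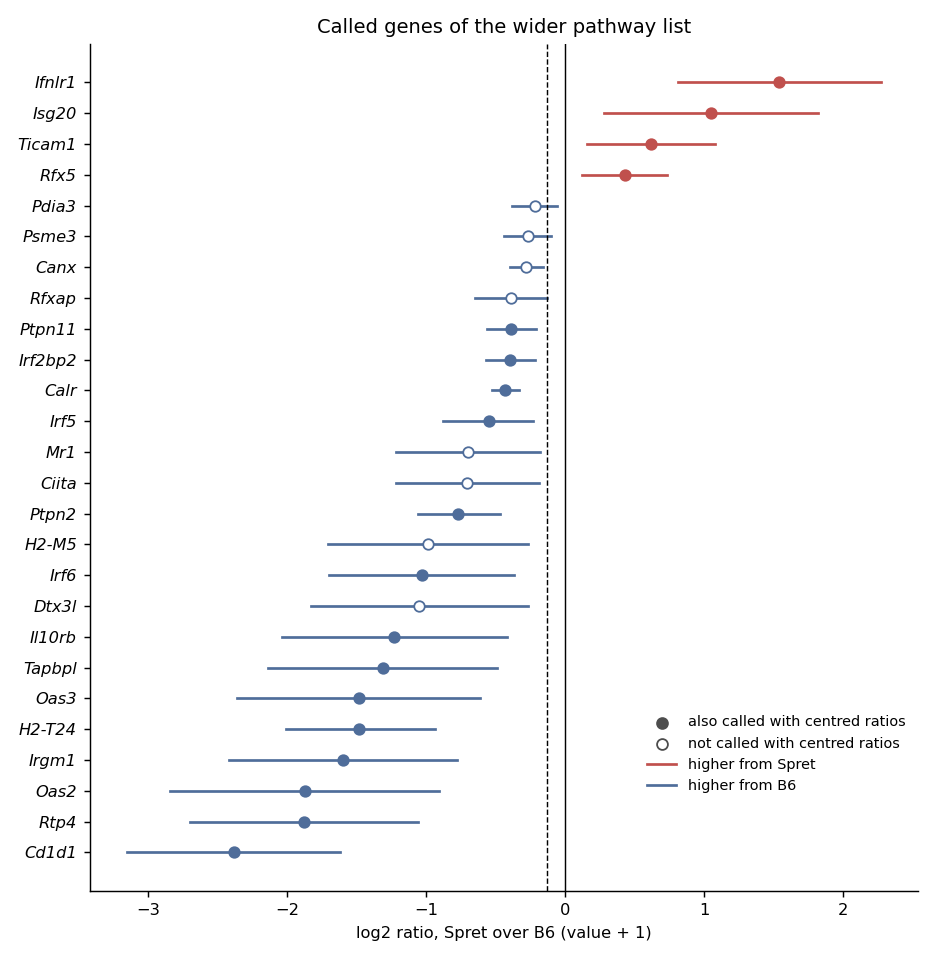
Log2 ratio of Spret over B6 (x axis) of 26 of the 27 called genes of the wider pathway list (y axis), with 95% limma intervals. Filled dots were also called with centred ratios, open dots were not, and the dashed line is the autosomal median of -0.13. Of the genes shown, Cd1d1 at -2.38 lies farthest to the left, and 4 genes lie to the right of 0. Cd1d1 passed the filter only through its B6 values, so its place is tied to the filter.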

How the data were processed

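The deposited table holds a score: per its name, allele-specific normalised read numbers that the authors rounded to whole numbers, with 3 Spret and 3 B6 columns. Per the submitters' processing notes the genome build is mm10. Per the labels' protocols, libraries were ribodepleted and meant to reach 80M reads each. The aligner, allele assignment, counter, use of strand and normalisation are not given in the sources used here. Up to 200, 27 whole numbers in library 1 and 43 in library 2 were held by no gene, against 0 in library 3. The table's name calls the values normalised, so no count model was used. No interval on single values was given, since read numbers behind them are not known exactly.

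Ratios with a pseudocount of 1 were tested over all genes with a mean of at least 10, using limma 3.58.1 (R 4.3.3). The model held a library term and an allele term and let the prior variance follow intensity, with 2 residual and 12.3 prior degrees of freedom. Both alleles of a library come from the same RNA, which pairs them. The script was tested on simulated data. Positions, exon lengths and transcripts came from GENCODE M21 (GRCm38, 42620 genes matched, 899 more in RefSeq GRCm38.p6), promoters from RefSeq. The members, lists and rules were chosen with earlier results of these data known. All members are named. Of the wider list the 4 called genes of highest summed value per direction are named, and of neighbours the 3 called ones nearest to a member. Counts of the wider list include genes whose values are not reported here. The 12 alternatives changed filter, pseudocount, scaling, trend, pairing, genes fitted and libraries.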

Additional observations from a re-analysis of the deposited data

How the results depend on the processing

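The count of 12 called members (7 toward Spret, 5 toward B6) depended on the filter, the trend and the pairing, and its direction per gene did not: no called member changed sign in any of the 12 alternatives that kept it above the filter. With no filter on low values, which adds genes with a mean below 10 to the fit, 3 members were called by limma. Of these 0 were toward Spret and 3 toward B6, with 9 members toward Spret at an unadjusted p under 0.05. Without the intensity trend there were 5, 2 and 3. With no replicate block, which drops the pairing of alleles within a library, there were 4, with 0 toward Spret (6 at an unadjusted p under 0.05). Leaving out 1 library gave 6 to 9 called members and 2 to 5 toward Spret, with the low ends without library 1 and without library 3. The calls of Ifnar1, Ifngr2 and Stat2 held in all 12. Apart from centring, the share of autosomal genes called in each alternative is not reported here. Calls of the wider list, 27 in all, numbered 4 with no filter, 11 at a mean of at least 50, 10 without the trend and 6 with no replicate block, and 10 to 21 with a library left out. Uncalled ratios that changed sign were Irf9 with centred ratios (0.12) and, with 1 library left out, Irf9 (-0.19 to 0.11), Tap2 (-0.27 to 0.64), Psmb9 (-0.04 to 0.75) and Ifngr1 (-0.44 to 0.24). Neither other pseudocount (0.5 and 5) nor the fit on autosomal genes alone ended a member's call. What caused these changes was not tested. Low values, with at least 1 allele at a mean of 20 or less, limit the called Bst2 and also Tap2, Psmb8, Psmb9, Psmb10, Ifngr1, Irf1, Isg15, Ifi27, Trim25, Ifitm1 and Ifitm3.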

Other observations

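Some genes of the wider list that were too low to test had values that did not overlap between alleles. They are given as values chosen after they were seen, and values this low do not allow a statement on their alleles. Ifi27l2a, a neighbour and relative of Ifi27 on chromosome 12, read 24, 10 and 21 from Spret, and its B6 value was listed at 0 in all 3 libraries. H2-Ab1, the beta chain of a class II molecule on chromosome 17, read 3, 5 and 5 from Spret and 13, 11 and 17 from B6, also without overlap. Cd1d1, which presents lipids and was tested, read 12, 8 and 2 from Spret and 39, 45 and 26 from B6. Its ratio was -2.38 ± 0.36 (SE, limma adjusted p = 0.000135). It passed the filter only through its B6 values, so its ratio and p are tied to the filter. With no filter its call ended (limma adjusted p = 0.0843).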
